A study of Arabidopsis thaliana with 12 samples.

Results

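A set of 72 genes, of 33557 in the table, was low in the *bli ire1b* double mutant while *bli ire1a* kept at least 0.75 times and *bli* more than 0.5 times the wild-type level. The genes were chosen by their levels in this RNA-Seq experiment on *Arabidopsis thaliana* seedlings, in which 4 genotypes were measured in 3 libraries each. Levels are FPKM, a fragment count scaled by transcript length and by the size of the library, and genotype means are over 3 libraries. A gene entered the set with a WT mean of at least 1 FPKM, a *bli ire1b* mean of at most 0.5 times WT and at most 0.7 times *bli*, a *bli* mean above 0.5 times WT, a *bli ire1a* mean of at least 0.75 times WT, and every *bli ire1b* library below every library of the other genotypes. Because the values of all 4 genotypes chose the genes, their levels and ratios are given here as a description, and calls of a fit over all genes are given once with nothing read from them.

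The genotypes were *bli ire1b* (bli-1-/-ire1b-/-), *bli ire1a* (bli-1-/-ire1a-/-), *bli* (bli-1-/-) and wild type (WT), all in the Columbia strain. The labels give seedlings of day 12, whereas the study's methods give an older age. All 3 mutants carry the same *bli-1* insertion, each *IRE1* gene was disrupted by a single T-DNA allele, and no *ire1b* mutant with functional *BLI* was among the libraries, so a difference between *bli ire1b* and WT belongs to both mutations together. The samples were whole seedlings, in which fewer cells of a type and less RNA per cell cannot be told apart.

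IRE1 is a sensor in the membrane of the endoplasmic reticulum (ER) with a kinase and a ribonuclease domain on its cytosolic side. When unfolded proteins accumulate, it splices the mRNA of the transcription factor bZIP60, which switches on chaperone genes in the unfolded protein response (UPR), and it can also degrade mRNAs at the ER. Arabidopsis has the paralogs IRE1A and IRE1B. BLISTER (BLI), a protein known only from plants, binds a subunit of the Polycomb machinery, which silences genes through histone marks, and plants without functional BLI stay small.

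The mutated genes were examined first. *IRE1B* (AT5G24360) was at 4.84, 5.34 and 4.56 FPKM in *bli ire1b*, 10.9, 9.95 and 9.66 in *bli ire1a*, 10.7, 10.9 and 11.4 in *bli* and 10.5, 9.21 and 9.64 in WT. It was lowest in the libraries that carry its insertion, where fragments of the gene were still counted. *IRE1A* (AT2G17520) averaged 22.2 ± 1.09 FPKM in *bli ire1b*, 5.23 ± 0.677 in *bli ire1a*, 23.3 ± 0.764 in *bli* and 15.5 ± 0.475 in WT (SD, n = 3 each). *BLI* (AT3G23980) averaged 10.8 ± 1.04 FPKM in *bli ire1b*, 10.6 ± 2.49 in *bli ire1a*, 10.9 ± 0.915 in *bli* and 17.3 ± 0.435 in WT. *IRE1B* itself missed the set narrowly, with a ratio of *bli ire1b* to WT of 0.501.

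Over the 72 genes, the *bli ire1b* mean was 0 to 0.497 times the WT mean, with a median of 0.399, where the median over the 19332 genes with a WT mean of at least 1 FPKM was 0.995. Against *bli* the ratio was 0 to 0.691 (median 0.498), and against *bli ire1a* it was 0 to 0.658 (median 0.433). The *bli ire1a* mean was 0.753 to 1.51 times WT (median 0.888) and the *bli* mean was 0.531 to 1.97 times WT (median 0.754). The set therefore holds genes whose *bli* mean was well below WT and genes that were not: 35 had a *bli* to WT ratio under 0.75, 20 were from 0.75 to under 1, and 17 were at 1 or above.

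**Figure D1:**
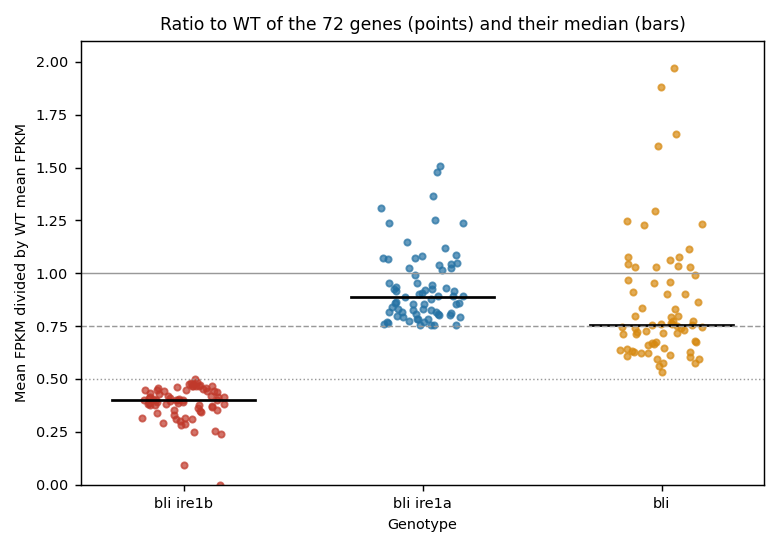
Mean FPKM of *bli ire1b*, *bli ire1a* and *bli* divided by the WT mean (vertical axis, no unit) for each of the 72 genes (points), with the median as a black bar and grey lines at 1 (solid), 0.75 (dashed) and 0.5 (dotted). The *bli ire1b* points lie at or below 0.497 and the *bli ire1a* points at or above 0.753, as the rule sets them, while the *bli* points spread between 0.531 and 1.97.

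Above *bli ire1b*, which the rule places lowest, the most frequent order of the means was WT, then *bli ire1a*, then *bli*, in 35 genes. In 13 genes the order was *bli ire1a*, WT, *bli*, and in 10 genes it was *bli*, WT, *bli ire1a*.

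The same comparisons were fitted over the 20645 genes with a mean of at least 0.5 FPKM, with limma on log2(FPKM + 0.1) and the study's cutoffs (a fold change of at most 0.5 or at least 2, unadjusted p of at most 0.05). Since the rule used these contrasts, the counts of members stand beside the share of all genes tested with nothing read from them. Against WT, 70 of the 72 genes were called lower in *bli ire1b*, beside 7.63% of all genes tested. Against *bli*, 36 were called lower, beside 1.81% of all genes, and 24 once p was adjusted by Benjamini and Hochberg's method (at most 0.05), beside 0.915%. That 24 was 13 to 25 when each library was left out in turn, with 13 without *bli ire1b* 1 (0.387% of all genes), 14 without *bli* 1 (also 0.387%) and 16 without *bli* 2 (0.523%). Against *bli ire1a*, 53 were called lower, beside 2.57%. With a pseudocount of 1 in place of 0.1 the counts of 70, 36 and 53 were 42, 18 and 27, beside 4.95%, 0.886% and 1.2% of all genes at that setting. In *bli* against WT, 0 were called lower beside 5.71% of all genes and 1 was called higher beside 4.4%, and in *bli ire1a* against WT 0 were called lower beside 2.18%. These comparisons share libraries, so their counts are not independent of each other.

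Without the fold cutoff, 28 of the 72 genes had every *bli* library below every WT library (24.5% of the 19332 genes did), and 3 had every *bli* library above every WT library (23.1%). Every *bli ire1a* library was below every WT library in 8 genes (18.1%), and above every *bli* library in 16 genes (16.4%). The rule used the values of these same libraries, so nothing is read from these counts beside the shares of all genes. The gap that separates *bli ire1b* from the rest was mostly small. The highest *bli ire1b* library stood at a median of 0.794 times the lowest library of the other genotypes, and at over 0.9 times in 11 genes.

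**Figure D2:**
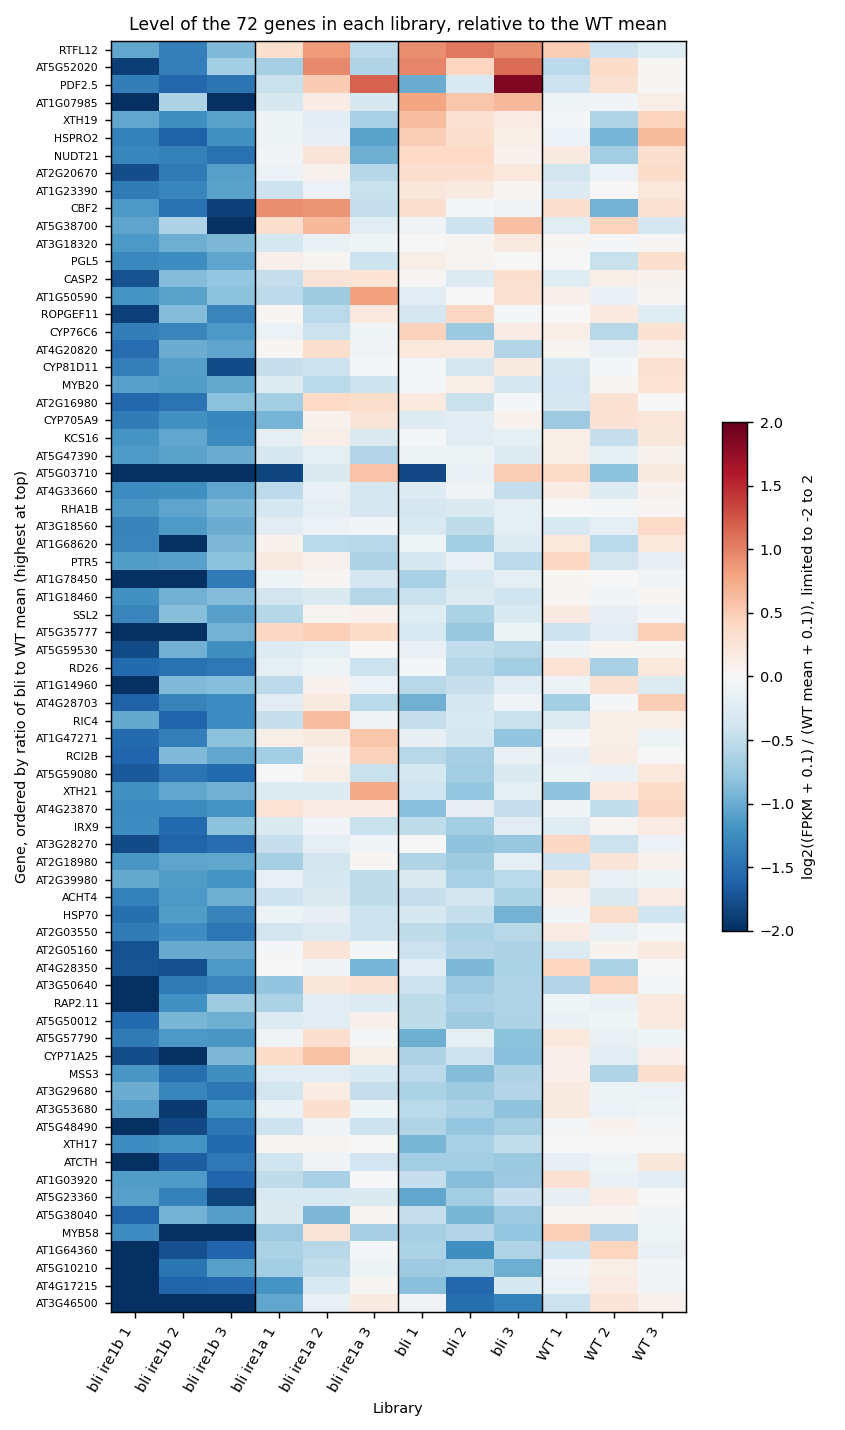
Level of the 72 genes (rows, ordered by the *bli* to WT ratio) in the 12 libraries (columns), as log2 of (FPKM + 0.1) over (WT mean + 0.1), with colours limited to −2 and 2. The *bli ire1b* columns are blue in every row. The *bli* columns pass from red at the top (*RTFL12*, ratio 1.97) to mostly blue at the bottom (AT3G46500, ratio 0.531). In AT3G46500, *bli* 1 (1.21 FPKM) was near the WT mean (1.28 FPKM).

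In WT, 5 genes of the set had a mean of at least 100 FPKM, 21 had 20 FPKM or more and 29 had under 5 FPKM. AT5G48490 encodes a small protein of the lipid-transfer and seed-storage albumin superfamily. It was at 52.4, 69.7 and 89.5 FPKM in *bli ire1b*, 182, 232 and 182 in *bli ire1a*, 159.6, 142 and 154 in *bli* and 239, 254 and 236 in WT. Each mutant lay below WT without overlap, and *bli ire1b* was lowest, at 0.29 times WT and 0.465 times *bli*. On the log2 scale the difference of *bli ire1b* from WT was -1.82 (SE 0.16). AT2G25900 (*ATCTH*), which encodes a tandem CCCH zinc-finger protein, had the same order of means. It was at 29.1, 38.2 and 44.5 FPKM in *bli ire1b*, 90.7, 114 and 92.7 in *bli ire1a*, 74.5, 75 and 72.2 in *bli* and 108, 113 and 140.0 in WT. The *bli ire1a* libraries of this gene overlapped those of WT. Its *bli ire1b* mean was 0.31 times WT and 0.504 times *bli*.

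Among the 10 highest genes, 3 had their highest mean in *bli*. AT2G20670, a gene of the DUF506 family, was at 61.4, 79 and 98.3 FPKM in *bli ire1b*, 194, 223 and 141 in *bli ire1a*, 263, 265 and 244 in *bli* and 163, 194 and 272 in WT. The *bli* libraries overlapped the WT libraries, and *bli ire1b* was at 0.309 times *bli*. AT1G23390 encodes a Kelch-repeat F-box protein, a substrate adaptor of an E3 ubiquitin ligase, and was at 74.7, 79.4 and 93.6 FPKM in *bli ire1b*, 147, 181 and 144 in *bli ire1a*, 231, 223 and 203 in *bli* and 164, 198 and 228 in WT. *HSPRO2*, the Arabidopsis ortholog of a sugar beet nematode-resistance gene, was at 56.5, 46.8 and 62.4 FPKM in *bli ire1b*, 135, 129 and 69 in *bli ire1a*, 202, 181 and 157 in *bli* and 133, 76 and 224 in WT. Its WT libraries differed by 2.95-fold among themselves, and the WT 2 and *bli ire1a* 3 libraries lay close to *bli ire1b*.

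*RCI2B* encodes a small hydrophobic membrane protein of a family known for induction by cold and salt. It was at 29.7, 48.4 and 43.2 FPKM in *bli ire1b*, 55.6, 93.4 and 122 in *bli ire1a*, 60.5, 56.4 and 81.1 in *bli* and 79.1, 98.5 and 89.3 in WT. The *bli ire1a* libraries spread widely here, and the lowest of them was only slightly above the highest *bli ire1b* library. AT5G59080, an uncharacterized gene, was at 20.5, 23.8 and 22.3 FPKM in *bli ire1b*, 65.4, 71.4 and 48.6 in *bli ire1a*, 51.7, 40.6 and 54.3 in *bli* and 61.3, 60.3 and 76.7 in WT, with *bli ire1b* at 0.336 times WT and *bli* and *bli ire1a* at 0.739 and 0.935 times WT. Its annotated locus overlaps AT5G59070 on the opposite strand over 2321 bases. AT5G59070 averaged 1.23 FPKM in *bli ire1b*, 2.09 in *bli ire1a*, 1.63 in *bli* and 2.17 in WT.

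*ACHT4*, an atypical thioredoxin, had 28 ± 3.53 FPKM in *bli ire1b*, 47.3 ± 3.71 in *bli ire1a*, 44.5 ± 4.15 in *bli* and 62.4 ± 9.94 in WT (SD, n = 3 each). AT4G33660, which encodes a short cysteine-rich transmembrane-module protein, had 21.8 ± 1.87 FPKM in *bli ire1b*, 38.9 ± 4.99 in *bli ire1a*, 41 ± 5.8 in *bli* and 49 ± 7.21 in WT. *RHA1B*, a RING-H2 finger gene, had 20.8 ± 1.76 FPKM in *bli ire1b*, 35 ± 1.96 in *bli ire1a*, 35.6 ± 1.75 in *bli* and 42.9 ± 0.78 in WT, so that its *bli* and *bli ire1a* means were nearly equal. It was among the 3 genes closest to the limit at 0.5 times WT, at 0.485.

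**Figure D3:**
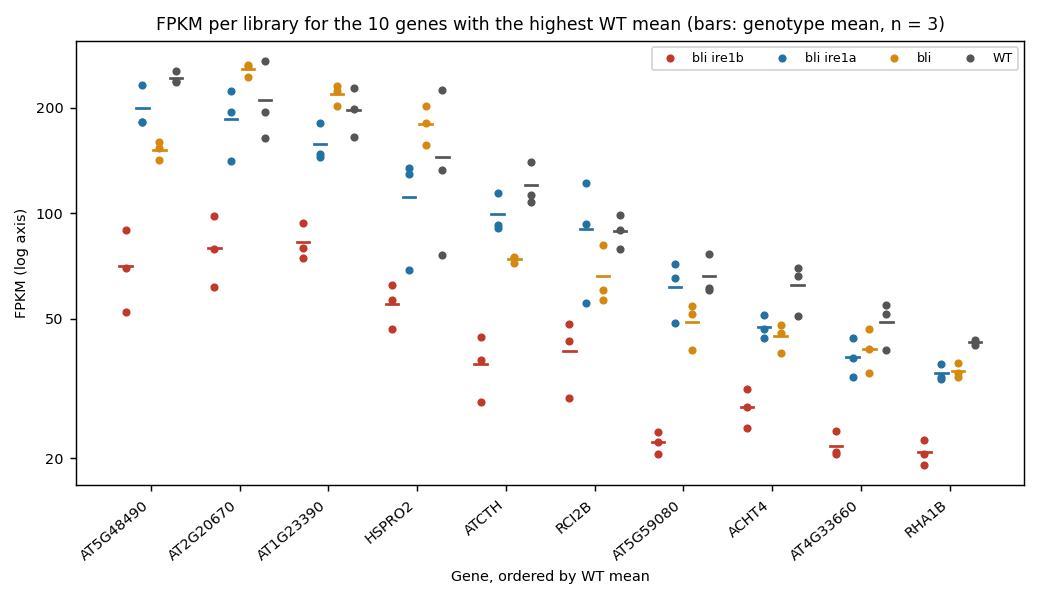
FPKM on a log axis in each library (points) for the 10 genes with the highest WT mean, with a bar at each genotype mean (n = 3), genotypes from left to right being *bli ire1b*, *bli ire1a*, *bli* and WT. The *bli ire1b* points are the lowest of each gene, and *bli* is above WT in AT2G20670, AT1G23390 and *HSPRO2* only.

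Some genes lay further below WT than the median of the set. AT5G03710 was listed at 0 in all 3 *bli ire1b* libraries, against 4.04, 11.9 and 21.8 FPKM in *bli ire1a*, 4.10, 13.3 and 20.6 in *bli* and 19.1, 8.19 and 16.6 in WT. Its values varied 5.03-fold among the libraries of *bli* and 5.40-fold among those of *bli ire1a*. The gene shares 486 bases with *HSFA3* on the opposite strand, which averaged 4.90 FPKM in *bli ire1b*, 4.05 in *bli ire1a*, 4.42 in *bli* and 2.69 in WT, and 184 of its 430 transcript bases are 99.5% identical to AT4G06597. An exact 0 can be a failed estimate in a table without counts, so the size of this difference is uncertain. AT3G46500, a 2-oxoglutarate-dependent oxygenase gene, was at 0.0923, 0.0855 and 0.183 FPKM in *bli ire1b*, 0.571, 1.14 and 1.47 in *bli ire1a*, 1.21, 0.385 and 0.441 in *bli* and 0.925, 1.55 and 1.36 in WT, the lowest ratio to WT above 0 in the set.

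Of the genes with a WT mean of at least 5 FPKM, AT1G78450, which encodes a SOUL heme-binding protein, had the lowest ratio to WT above 0, at 0.254. It was at 1.19, 1.66 and 2.66 FPKM in *bli ire1b*, 6.84, 7.38 and 5.71 in *bli ire1a*, 4.6, 5.81 and 6.39 in *bli* and 7.45, 7.27 and 7 in WT. The groups were well apart, with the highest *bli ire1b* library at 0.579 times the lowest other library. AT4G17215 (Pollen Ole e 1 allergen and extensin family) was at 0.284 times WT but at 0.562 times WT already in *bli*, and its highest *bli ire1b* library nearly met its lowest *bli* library (0.998 times). The uncharacterized genes AT1G64360 and AT3G50640 were at 0.288 and 0.312 times WT. AT3G28270, a DUF677 gene, was at 0.314 times WT.

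Relative to *bli*, the lowest genes with a WT mean of at least 5 FPKM after AT5G03710 were *PDF2.5* and *RTFL12*. *PDF2.5* encodes a plant defensin, a small cysteine-rich secreted peptide. It was at 12.4, 10.9 and 11.7 FPKM in *bli ire1b*, 23.9, 46.3 and 73.7 in *bli ire1a*, 16.2, 26.2 and 119 in *bli* and 24.3, 40.01 and 32.9 in WT. The *bli ire1b* libraries were tight, while *bli* 3 stood 7.35-fold above *bli* 1 and 4.55-fold above *bli* 2, so the *bli* to WT ratio of 1.66 rests on that library. *RTFL12* encodes a small peptide of the ROTUNDIFOLIA family, whose members restrict cell proliferation in lateral organs. It was at 4.15, 3.29 and 4.68 FPKM in *bli ire1b*, 10.8, 15.8 and 6 in *bli ire1a*, 16.7, 18.1 and 16.5 in *bli* and 12.2, 6.49 and 7.28 in WT, the highest *bli* to WT ratio of the set at 1.97. Every *bli* library lay above every WT library, and *bli ire1b* was at 0.236 times *bli*.

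Transcriptional regulators were spread over the set. By the words of their annotation, 7 of the 72 genes fell in the transcription factor group, among 1069 such genes with a WT mean of at least 1 FPKM (0.655%, where all genes gave 0.372%). The words include zinc finger, so the group also holds genes not annotated as transcription factors. Such are the CCCH genes *ATCTH* and AT2G05160, the latter with an RNA-binding domain, and the acyltransferase gene AT3G53680 with a PHD-type zinc finger. The group includes the MYB-like gene AT5G47390 (*KUA1*, a regulator of cell expansion), which was at 17.6, 18.4 and 19.5 FPKM in *bli ire1b*, 31, 34 and 25.9 in *bli ire1a*, 36.2, 36.2 and 32.4 in *bli* and 41.9, 33.8 and 40.7 in WT. *MYB20*, a regulator of secondary wall lignification, had 3.45 ± 0.122 FPKM in *bli ire1b*, 5.58 ± 0.558 in *bli ire1a*, 7.09 ± 1.12 in *bli* and 7.38 ± 1.69 in WT. *MYB58*, a lignin activator, had only 0.25 ± 0.115 FPKM in *bli ire1b*, 0.83 ± 0.384 in *bli ire1a*, 0.621 ± 0.0474 in *bli* and 1.05 ± 0.415 in WT, and it shares 1434 bases with a non-coding RNA on the opposite strand, AT1G16489, at 1.94 FPKM in *bli ire1b*, 0.275 in *bli ire1a*, 3.47 in *bli* and 3.53 in WT. The strandedness of the counting is not given in the sources used here, so reads of such pairs cannot be told apart.

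The annotation words missed some regulators. *RD26*, a NAC transcription factor induced by drought and abscisic acid, was at 7.61, 7.89 and 8.31 FPKM in *bli ire1b*, 19.6, 21.3 and 16.7 in *bli ire1a*, 21.9, 15.1 and 13.9 in *bli* and 27.1, 14.3 and 26.1 in WT. *CBF2*, a cold-response activator named after its values were seen, was at 1.56, 1.2 and 0.902 FPKM in *bli ire1b*, 6.92, 6.67 and 2.55 in *bli ire1a*, 4.6, 3.52 and 3.41 in *bli* and 4.48, 1.81 and 4.42 in WT, and its *bli ire1a* mean of 1.51 times WT was the highest of the set. In the AP2/ERF gene AT5G52020, one of the 7 above, every *bli* library lay above every WT library, with 0.629 ± 0.305 FPKM in *bli ire1b*, 1.74 ± 1.29 in *bli ire1a*, 3.02 ± 0.74 in *bli* and 1.61 ± 0.517 in WT. *RAP2.11*, an AP2/ERF factor known from low-potassium signalling and likewise named afterwards, had 1.79 ± 0.848 FPKM in *bli ire1b*, 3.38 ± 0.524 in *bli ire1a*, 2.87 ± 0.142 in *bli* and 4.36 ± 0.569 in WT, and *bli* was at 0.659 times WT.

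Cell wall genes made up 4 of the 72, among 368 expressed (1.09%). Of these, 3 encode xyloglucan endotransglucosylase/hydrolases (XTHs), which cut and rejoin xyloglucan chains in the expanding wall. *XTH17* was at 8.51, 8.82 and 6.78 FPKM in *bli ire1b*, 20.9, 21 and 20.1 in *bli ire1a*, 10.7, 12.9 and 14.3 in *bli* and 20.3, 20.3 and 20.01 in WT. Its *bli ire1a* mean was 1.02 times WT, *bli* was at 0.624 times WT, and *bli ire1b* at 0.398 times. *XTH19* was at 15.3, 13.5 and 15 FPKM in *bli ire1b*, 29.6, 27.1 and 20.2 in *bli ire1a*, 48.7, 39.2 and 35.4 in *bli* and 31.2, 21 and 43.1 in WT, with *bli* highest. *XTH21* was weak, with 1.29 ± 0.123 FPKM in *bli ire1b*, 3.14 ± 1.43 in *bli ire1a*, 2.05 ± 0.422 in *bli* and 2.8 ± 1.09 in WT.

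The rest of the family, looked up after the members were known, went both ways. Of the other 21 *XTH* genes with a WT mean of at least 1 FPKM, 12 had a *bli ire1b* mean below WT and 9 at or above it, with ratios to WT of 0.325 to 6.31 and ratios to *bli* of 0.577 to 1.39. *XTH24* averaged 433 ± 27.1 FPKM in *bli ire1b*, 271 ± 59.7 in *bli ire1a*, 425 ± 75.4 in *bli* and 68.6 ± 5.53 in WT. *XTH18*, the neighbour of *XTH19*, averaged 45.2 ± 11.3 FPKM in *bli ire1b*, 43.1 ± 11.7 in *bli ire1a*, 78.4 ± 6.63 in *bli* and 23.3 ± 5.003 in WT. *XTH20* had its lowest mean in *bli*, with 3.77 ± 0.856 FPKM in *bli ire1b*, 5.96 ± 1.39 in *bli ire1a*, 2.72 ± 0.136 in *bli* and 10.2 ± 1.51 in WT.

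Other wall and growth genes were named after their values were seen. *IRX9*, a glycosyltransferase of xylan synthesis, had 1.75 ± 0.485 FPKM in *bli ire1b*, 3.4 ± 0.478 in *bli ire1a*, 2.94 ± 0.517 in *bli* and 4.09 ± 0.584 in WT. *CASP2*, which encodes a protein of the Casparian strip membrane domain in the root endodermis, was at 3.95, 7.31 and 7.83 FPKM in *bli ire1b*, 9.7, 16.1 and 16.2 in *bli ire1a*, 13.8, 11.2 and 16.9 in *bli* and 11.4, 14.8 and 14.2 in WT. The other 3 genotypes overlapped, and *bli ire1b* 1 was lower than the other two *bli ire1b* libraries. *ROPGEF11* and *RIC4* act on ROP GTPases, the switches of polar growth, as an activator and an effector. *ROPGEF11* had 2.88 ± 1 FPKM in *bli ire1b*, 6.85 ± 1.71 in *bli ire1a*, 7.42 ± 2.01 in *bli* and 7.19 ± 1.08 in WT, and *RIC4* had 1.44 ± 0.293 FPKM in *bli ire1b*, 3.89 ± 1.56 in *bli ire1a*, 2.7 ± 0.179 in *bli* and 3.63 ± 0.55 in WT. *ROPGEF11* shares 174 bases with the photosystem I gene *PSAH2* on the opposite strand. *PSAH2* averaged 2221 FPKM in *bli ire1b*, 2703 in *bli ire1a*, 2259 in *bli* and 3533 in WT.

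Metabolic enzymes formed further groups. Cytochromes P450, mono-oxygenases of hormone and specialized metabolism, made up 4 of the 72 genes among 155 expressed (2.58%). Over all tested P450 genes, these members included, 30 of 171 were called lower and 10 higher in *bli ire1b* than in WT at the cutoffs above, beside 7.63% of all genes called lower and 3.32% called higher. Called lower in other word groups were 69 of 400 cell wall, 23 of 86 peroxidase, 78 of 533 lipid and 121 of 1145 transcription factor genes, and also 31 of 144 auxin genes, of which none is in the set. In the same order, 19, 5, 20, 38 and 5 genes of these groups were called higher. Below the share of all genes were, among others, ribosomal proteins (1 of 317 lower), photosynthesis (9 of 153), the cell cycle (12 of 213) and heat shock (5 of 94). *CYP81D11*, induced by jasmonate and xenobiotics, was at 4.37, 5.25 and 3.23 FPKM in *bli ire1b*, 8.22, 8.56 and 11.1 in *bli ire1a*, 11.1, 8.99 and 13 in *bli* and 8.95, 11.2 and 14 in WT. *CYP76C6*, *CYP705A9* and *CYP71A25* had WT means of 2.68, 2.28 and 1.95 FPKM and ratios of *bli ire1b* to WT of 0.389, 0.379 and 0.315. *CYP705A9* is 95.1% identical to AT2G27000 over 370 bases, so its reads may be split between them.

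By annotation words, which include acyl and so also take in acyltransferase genes, 6 genes fell in the lipid group of 513 expressed genes (1.17%). Besides AT5G48490 these include *KCS16*, a 3-ketoacyl-CoA synthase of very-long-chain fatty acid elongation, at 7.11, 7.8 and 6.66 FPKM in *bli ire1b*, 14.2, 17.8 and 13.2 in *bli ire1a*, 15.7, 13.9 and 14.2 in *bli* and 17.8, 11.7 and 19 in WT. In *KCS16* the other genotypes overlapped and *bli ire1b* was at 0.445 times WT. The acyltransferase gene AT2G39980 had 4.84 ± 0.276 FPKM in *bli ire1b*, 8.38 ± 1.1 in *bli ire1a*, 7.53 ± 1.01 in *bli* and 10.5 ± 1.56 in WT, and the lipid-transport superfamily gene AT1G14960 had 3.9 ± 1.54 FPKM in *bli ire1b*, 7.83 ± 1.63 in *bli ire1a*, 6.64 ± 0.823 in *bli* and 8.8 ± 1.9 in WT. The peroxidase AT2G18980 had 12.2 ± 0.589 FPKM in *bli ire1b*, 21 ± 5.06 in *bli ire1a*, 18.7 ± 3.7 in *bli* and 26.1 ± 5.94 in WT. *PTR5*, a transporter of dipeptides, had 1.05 ± 0.129 FPKM in *bli ire1b*, 2.09 ± 0.595 in *bli ire1a*, 1.74 ± 0.24 in *bli* and 2.2 ± 0.675 in WT, and the glycosyltransferase gene AT5G38040 had 0.672 ± 0.172 FPKM in *bli ire1b*, 1.3 ± 0.446 in *bli ire1a*, 0.986 ± 0.162 in *bli* and 1.66 ± 0.0542 in WT. Among groups with no gene in the set were ribosomal proteins (311 expressed), photosynthesis (151), auxin (138) and the cell cycle (204). Only 0.372% of all genes with a WT mean of at least 1 FPKM were in the set, so nothing is read from these absences. In all, 35 of the 72 genes fell in no word group and 12 were described as unknown.

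The UPR list of 18 genes, which holds *BLI*, *IRE1A* and *IRE1B* themselves, had no gene in the set. The rule admits no gene above 0.5 times WT, and 0.372% of all genes with a WT mean of at least 1 FPKM were in the set, so nothing is read from this. The summed level of the list was 1616 to 1676 FPKM in *bli ire1b*, 1036 to 1094 in *bli ire1a*, 1674 to 1742 in *bli* and 672 to 751 in WT. In *bli ire1b* 15 of the 18 were called higher and 2 lower than WT at a limma adjusted p of at most 0.05, without a fold cutoff, beside 19.1% of all genes called higher and 20.1% called lower in this way, the 2 lower ones being *IRE1B* and *BLI*. The 15 include *MRN1*, a marneral synthase gene, and *LTP4*, a lipid transfer protein gene, which the study treats as non-canonical, and since several genes of the list were taken from the study's account of these libraries its direction is not independent evidence. Against *bli*, 2 of the 18 were lower at the same adjusted p (3.25% of all genes), *IRE1B* and *MRN1*. *MRN1* averaged 0.603 ± 0.23 FPKM in *bli ire1b*, 0.351 ± 0.256 in *bli ire1a*, 2.62 ± 0.522 in *bli* and 0.143 ± 0.0529 in WT, a log2 difference from *bli* of -1.99 with a limma adjusted p = 0.0401. *LTP4* averaged 36.1 ± 22.3 FPKM in *bli ire1b*, 6.73 ± 3.29 in *bli ire1a*, 77.4 ± 30.5 in *bli* and 0.424 ± 0.13 in WT, and its log2 difference from *bli* was -1.24 (limma adjusted p = 0.169). *BiP3*, an ER chaperone gene, averaged 53.6 ± 3.62 FPKM in *bli ire1b*, 4.67 ± 0.652 in *bli ire1a*, 72.8 ± 2.96 in *bli* and 0.664 ± 0.626 in WT. The chaperone gene in the set, *HSP70* (AT3G12580), encodes a cytosolic heat shock protein and was at 5.86, 7.69 and 6.59 FPKM in *bli ire1b*, 15.7, 15 and 12.5 in *bli ire1a*, 13.5, 12.1 and 8.67 in *bli* and 16.3, 21.4 and 12.8 in WT.

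The genes lay on all 5 chromosomes, with 17, 13, 12, 12 and 17 on chromosomes 1 to 5 by the TAIR10.1 annotation, which 71 of the 72 matched. A single pair lay within 5 genes of each other, *HSPRO2* and AT2G39980, 10307 bases apart on chromosome 2. *PGL5*, a 6-phosphogluconolactonase gene of the pentose phosphate pathway, lies 6 genes and 16552 bases from *IRE1B* on chromosome 5. It was at 4.87, 5.01 and 5.74 FPKM in *bli ire1b*, 12.8, 12.5 and 9.03 in *bli ire1a*, 13, 12.5 and 12.1 in *bli* and 12, 8.84 and 15.2 in WT. The other genotypes overlapped in *PGL5*, and *bli ire1b* was at 0.434 times WT. Its tandem neighbour *PGL4* averaged 1.24 FPKM in *bli ire1b*, 1.85 in *bli ire1a*, 1.94 in *bli* and 2.17 in WT. The next nearest gene of the set to *IRE1B* was AT5G23360, 131 genes away.

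**Figure D4:**
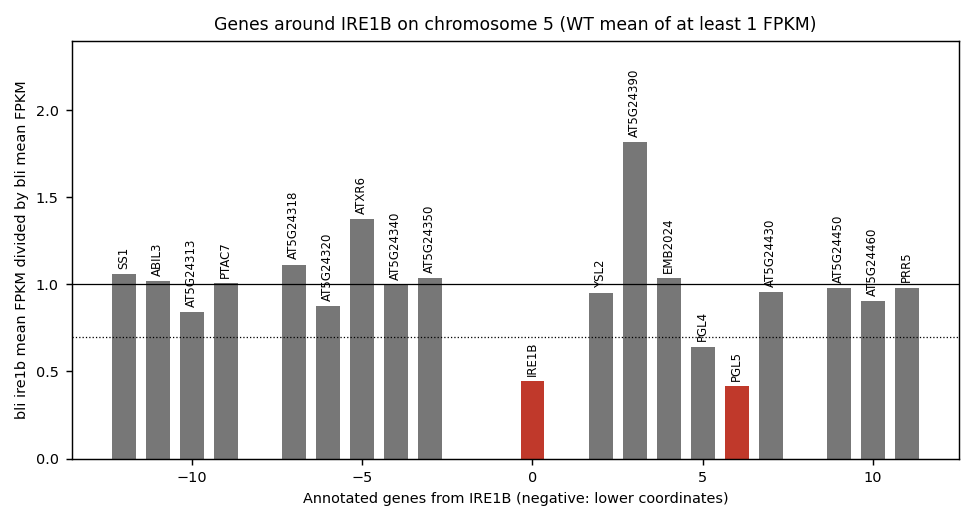
Mean FPKM of *bli ire1b* divided by that of *bli* (vertical axis, no unit) for genes with a WT mean of at least 1 FPKM around *IRE1B*, by gene order (horizontal axis), with lines at 1 (solid) and 0.7 (dotted). *IRE1B* (0.447) and *PGL5* (0.416), in red, and *PGL4* (0.643) are below 0.7, the other genes lie at 0.840 or above, and AT5G24390 (1.82) is highest.

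The remaining 21 genes had WT means of 1.34 to 36.2 FPKM, *bli ire1b* to WT ratios of 0.249 to 0.469 and *bli* to WT ratios of 0.573 to 1.60. They include the hydrolase genes AT2G03550 and AT1G68620, the cupin genes AT4G28703 and AT1G50590, the kinase genes AT4G28350 and AT1G03920, the acyltransferase AT3G29680 and the strictosidine synthase-like gene *SSL2*. AT1G07985, an uncharacterized gene, had the highest *bli* to WT ratio of them, with 1.04 ± 1.02 FPKM in *bli ire1b*, 3.11 ± 0.637 in *bli ire1a*, 5.53 ± 0.46 in *bli* and 3.45 ± 0.286 in WT. The pseudogene AT5G35777 had the lowest *bli ire1b* to WT ratio of them, with 0.334 ± 0.283 FPKM in *bli ire1b*, 1.84 ± 0.0781 in *bli ire1a*, 1.02 ± 0.251 in *bli* and 1.34 ± 0.504 in WT.

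Features that the rule did not use were compared with the 19191 annotated genes at a WT mean of at least 1 FPKM, as a description. The genes of the set were short and had few exons. The median transcript was 1363 bases, against 1677 bases for all expressed genes, with 2 exons against 5, and the median protein was 288 against 381 residues. A single exon was annotated in 25 of 71 genes (35.2%), against 16.1% of the expressed genes. Transcript GC was 40.2% against 41.4%. A hydrophobic stretch near the N-terminus, as in many proteins that enter the ER, was found in 19 of 70 proteins (27.1%), against 20.2%. The median WT mean of the set was 7.96 FPKM, against 13.9 FPKM for all expressed genes.

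Overlap with another annotated gene was found for 12 genes, in 11 of them on the opposite strand, and 4 genes had a stretch of at least 100 bases that was at least 95% identical to another transcript. These 4 include AT3G18320, whose whole transcript of 1363 bases is 96.3% identical to AT3G44120, so their levels are uncertain. AT3G18320 had 1.4 ± 0.134 FPKM in *bli ire1b*, 2.54 ± 0.262 in *bli ire1a*, 3.08 ± 0.208 in *bli* and 2.9 ± 0.0785 in WT.

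Promoter windows were searched on both strands for 20 short motifs, in the 250 bases before and 50 bases after each annotated start of the 70 protein-coding genes matched. GATAAG, the core of the I-box bound by GATA and MYB-related factors, was in 21 windows (30%), against 14.9% of 18763 expressed protein-coding genes and 14.7% of all 27561. In the 200 bases upstream alone it was in 15 (21.4%), against 10.02% of expressed genes and 9.97% of all. TATAAA was in 67.1% of the windows, against 51.7% of expressed genes. CATGCA (14.3% against 8.42%) and GCCGAC (5.71% against 3.75%) were also in a larger share of the set. For CATGCA the shares were 8.57% and 7.5% in the 250 bases before the start alone. Smaller shares of the set held TGGGCC (5.71% against 18.9%), ACCGAC (1.43% against 6.28%), AACCGG (2.86% against 10.6%), AAATATCT (2.86% against 6.01%), GCCGCC (1.43% against 2.58%), ACGTGG (7.14% against 10.9%), TGACG (15.7% against 23.7%) and TGTCTC (10% against 13.5%), and none held AAACCCTA (5.42% of expressed genes). Shares were closer for TTGACT (18.6% against 22%), ACGTGTC (4.29% against 4.97%), TTGACC (12.9% against 14.4%), TGGGCT (15.7% against 16.6%), CACGTG (8.57% against 8.83%) and CCAAT (54.3% against 53.6%). The ER stress element, CCAAT and CCACG with 9 bases between, was in 0 windows of the set and 0.512% of expressed genes. GATAAG, the motif with the largest ratio of shares, was singled out after the 20 shares were seen.

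The 200 upstream bases of the 4 highest genes with GATAAG there are shown to place the motif, with GATAAG or its reverse complement CTTATC in capitals. They come from the RefSeq TAIR10.1 genome, are written 5′ to 3′ on the gene's strand and end at the base before the annotated start. The windows are chr2:16702337-16702536 (− strand) for *HSPRO2*, chr4:16168712-16168911 (− strand) for AT4G33660, chr1:27646744-27646943 (− strand) for *NUDT21* and chr4:13709171-13709370 (− strand) for *RD26*.
HSPRO2: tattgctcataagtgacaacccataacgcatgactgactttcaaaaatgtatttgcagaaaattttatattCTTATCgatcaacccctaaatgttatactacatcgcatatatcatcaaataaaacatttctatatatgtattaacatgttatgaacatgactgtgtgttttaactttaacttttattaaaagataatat
AT4G33660: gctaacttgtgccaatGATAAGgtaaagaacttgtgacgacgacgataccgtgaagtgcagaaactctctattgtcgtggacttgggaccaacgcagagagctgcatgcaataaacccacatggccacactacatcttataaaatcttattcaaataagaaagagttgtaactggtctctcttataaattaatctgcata
NUDT21: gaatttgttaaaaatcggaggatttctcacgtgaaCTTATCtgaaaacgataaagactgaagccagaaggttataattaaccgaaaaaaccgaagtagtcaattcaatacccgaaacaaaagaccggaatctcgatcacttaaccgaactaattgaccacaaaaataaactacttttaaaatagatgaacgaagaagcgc
RD26: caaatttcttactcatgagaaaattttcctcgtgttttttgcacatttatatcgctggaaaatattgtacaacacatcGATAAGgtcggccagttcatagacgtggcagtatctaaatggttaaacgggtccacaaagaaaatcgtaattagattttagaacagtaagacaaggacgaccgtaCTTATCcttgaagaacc
The match lies 129 bases before the start in *HSPRO2*, 184 in AT4G33660 and 165 in *NUDT21*, and *RD26* has 2 matches, at 122 and 17 bases, so their positions differ. *NUDT21*, a nudix hydrolase gene, was at 12, 11.6 and 10.5 FPKM in *bli ire1b*, 28.7, 35.7 and 15.1 in *bli ire1a*, 39.3, 39.4 and 31.3 in *bli* and 33.7, 18.4 and 37.2 in WT. The 15 genes with the motif in these 200 bases had a median *bli ire1b* to WT ratio of 0.383, against 0.4003 for the 55 without. Their median *bli* to WT ratios were 0.968 and 0.744.

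Within the set, some libraries were more often the lowest or highest of their genotype than others. *bli ire1b* 1 was the lowest of its genotype in 45 of the 72 genes, and the median deviation from the genotype mean was −0.14 on the log2 scale there, against −0.0040 over all genes tested. *bli ire1b* 3 was the highest of its genotype in 43 genes, and *bli ire1a* 2 in 34. WT 2 lay under 0.7 times the WT mean in 11 genes, which include *HSPRO2*, *NUDT21*, *RD26*, *CBF2*, *XTH19* and the calcium-binding gene *MSS3*. In 8 of these 11 *bli ire1a* 3 was the lowest of its genotype, as it was in 32 of all 72 genes. None of these counts of genes was made over all genes tested, so nothing is read from them. In *MSS3* the libraries were at 16.3, 12.8 and 15.5 FPKM in *bli ire1b*, 31.4, 31.1 and 29.7 in *bli ire1a*, 25.3, 19.9 and 23.8 in *bli* and 39.4, 24 and 46.3 in WT. The *bli ire1b* libraries of *MSS3* lay below every library of the other genotypes.

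The 10 lists of tissue and cell type markers were checked, and none of their 33 genes was in the set. As 0.372% of all genes with a WT mean of at least 1 FPKM were in it, nothing is read from this absence. Root hair markers (5 genes) summed to 21.5 to 48.8 FPKM in *bli ire1b*, 39.2 to 67.1 in *bli ire1a*, 38.3 to 55.2 in *bli* and 48.2 to 68.1 in WT, and 4 of 5 were lower than WT in *bli ire1b* at limma adjusted p of at most 0.05. Root tip markers (5 genes) summed to 24.7 to 26.6 FPKM in *bli ire1b*, 26.6 to 29.1 in *bli ire1a*, 28.1 to 32.1 in *bli* and 28.2 to 31.8 in WT. Leaf markers (5 genes) summed to 47446 to 51191 FPKM in *bli ire1b*, 55016 to 60317 in *bli ire1a*, 48043 to 51588 in *bli* and 67680 to 73955 in WT. By the same test 5 of 5 leaf, 2 of 2 guard cell, 2 of 2 trichome, 2 of 2 epidermis, 1 of 5 root tip and 1 of 3 phloem and xylem markers were lower in *bli ire1b* than in WT (20.1% of all genes), and 1 of 3 shoot meristem and 1 of 3 flower markers were higher (19.1%). No seed marker was called, and 26 of the 33 marker genes were high enough to be tested. Against *bli*, 0 of these 26 passed limma's adjusted p in either direction, and 3 were lower and 2 higher at an unadjusted p of at most 0.05. Guard cell markers summed to 19.8 to 20.2 FPKM in *bli ire1b*, 22.6 to 26.7 in *bli ire1a*, 13.8 to 18.5 in *bli* and 31.9 to 33.9 in WT. Flower markers (3 genes) summed to 22.9 to 26.5 FPKM in *bli ire1b*, 7.67 to 13.9 in *bli ire1a*, 30.5 to 34.9 in *bli* and 3.45 to 7.05 in WT. The root hair gene *PRP3* was at 14.4, 36.4 and 39.8 FPKM in *bli ire1b*. It was not called lower there than in WT (limma adjusted p = 0.451). Within *bli ire1b*, *PRP3* and the root hair markers *EXPA7*, *COBL9* and *RHD6* were lowest in *bli ire1b* 1, whereas *EXPA18* was lowest in *bli ire1b* 3. Nothing is read from this order about the genes of the set. The part of root hair, leaf and other cell content in the levels of the set was not tested.

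Values on both sides of the limits of the rule lay close together. Just inside 0.5 times WT were AT1G18460 (0.497), *RHA1B* (0.485) and AT3G18320 (0.481), and just outside were *RDUF1* (0.501), *IRE1B* (0.501) and AT3G44630 (0.502). In all, 123 genes failed this condition alone. Just inside 0.7 times *bli* were AT5G50012 (0.691), AT5G38040 (0.682) and AT2G18980 (0.653), and just outside were *OFP15* (0.702), AT5G14880 (0.704) and *ECT6* (0.713), with 22 genes failing this condition alone. A further 111 genes failed only the condition on *bli ire1a*, the nearest being *RSL4* at 0.747 times WT. Only 3 failed just the condition on *bli*, *RAB18* being lowest at 0.172 times WT. The condition that no library overlaps removed 103 of the 175 genes that met the others.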

How the data were processed

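The authors removed low-quality reads with SeqPrep and Sickle, aligned the rest to TAIR10 with TopHat and deposited a table of FPKM values for 33557 genes in 12 libraries. The submitters' processing notes name Bowtie 0.12.2 and the mouse build mm8, which cannot apply to these samples. All libraries were mapped to genotypes by their titles, and 0 columns were left unused. The deposited FPKM values are normalized and hold no read counts, so count-based tests did not apply, read depth per value is unknown and no counting error is given. The FPKM step of 1 fragment differed by library, from 0.555 to 1.07 times that of WT 1.

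The rule was applied to mean FPKM as deposited. log2(FPKM + 0.1) of the 20645 genes with a mean of at least 0.5 FPKM entered a single limma model of the 4 genotypes (limma 3.58.1, R 4.3.3), with eBayes and a mean-variance trend on 8 residual degrees of freedom. Low genes have their change understated by the added 0.1. An exact permutation test of 3 against 3 libraries cannot go below p = 0.1, so none was used. The methods call the 3 samples per genotype biological replicates, and the labels do not say which seedlings were pooled. Scripts were tested on simulated data.

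Gene models and promoters came from RefSeq TAIR10.1, a later release than the authors used. It matched 71 of the 72 genes and 32810 of all (97.8%). Near-identical stretches were found with blastn 2.17.0 (at least 95% over 100 bases), and a hydrophobic N-terminus was a window of 10 of the first 35 residues with a mean Kyte-Doolittle value of at least 2. The genes and lists were chosen with earlier results of these data known. Genes named were the mutated genes, the 10 highest by WT mean, the 10 lowest ratios to WT and 5 lowest to *bli* at a WT mean of at least 5 FPKM, the 3 on each side of a limit, neighbours within 5 genes, up to 4 per word group and listed genes. Others were named after their values were seen. Alternatives were other pseudocounts, filters, scalings, models and limits of the rule, and leaving out each library.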

Additional observations from a re-analysis of the deposited data

How the results depend on the processing

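The set depended on its limits. It held 57 genes with medians in place of means (46 shared with the 72), 67 with upper-quartile scaling (66 shared) and 50 with quantile normalization (50 shared). It held 43 genes at a WT mean of at least 5 FPKM, 175 without the condition on overlap, 38 at 0.4 times WT, 133 at 0.6 times WT, 36 at 0.5 times *bli*, and 32 with *bli ire1a* at 0.9 times WT or more. Leaving out each library in turn gave 66 to 142 genes. The 142 came without *bli ire1b* 3 and 119 came without *bli ire1b* 2, with 70 of the 72 shared in both. Fewer of the 72 were kept without WT 2 (52), WT 1 (57), *bli ire1a* 2 (59), WT 3 (60) and *bli ire1b* 1 (60), so part of the membership rests on single libraries. The median ratio to WT was 0.394 to 0.424 without each library and 0.455 with quantile normalization. GATAAG was in 16 of 70 windows (22.9%, against 12.4% of expressed genes) when only the 250 bases before the start were searched. There CATGCA fell to 6 windows (8.57% against 7.5%), so little of its larger share remained. TGTCTC fell to 4 windows (5.71% against 10.5%) and ACCGAC to 0 (against 5.17%).

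The counts of genes lower in *bli ire1b* were 1576 against WT, 373 against *bli* and 531 against *bli ire1a*, and leaving out each library in turn gave 1454 to 1681, 336 to 453 and 483 to 694. Against WT, 1179 were lower in *bli* (1048 to 1318) and 451 in *bli ire1a* (414 to 528), and 417 were higher in *bli ire1a* than in *bli* (381 to 495). With a pseudocount of 1 these 6 counts were 1022, 183, 248, 743, 263 and 197. At adjusted p, 189 were lower in *bli ire1b* than in *bli*. Labels share replicate numbers, but 0 of 18 same-numbered pairs correlated above 0.1 (−0.11 to 0.09, median 0.05). Pairs of different numbers gave −0.13 to 0.13 (median −0.02), and the numbers were not taken as pairs. With the replicate number as a block, 1597, 385 and 557 genes were lower in *bli ire1b* than in WT, *bli* and *bli ire1a*, and no count moved by over 1.5 times. Low levels, FPKM without counts and 3 libraries per genotype limit what single genes show.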
